A study of Homo sapiens with 12 samples.

Results

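The genes described here encode MYC and proteins of the network around it. These are the transcription factors MYC and MYCN, their obligate partner MAX, and the MAX-binding repressors MXD1, MXD3, MXD4, MXI1, MNT and MGA. MLX, a MAX-like protein, is the last. The genes were taken by symbol from the deposited gene table, and all 10 were found among its 57773 genes. The source of RNA was the human glioblastoma line U87, as parental cells and as a derivative labelled as having acquired resistance to JQ1. Each line was exposed for 24 h to DMSO (the solvent), to 1000 nM JQ1 or to 1000 nM dBET6, with 2 polyA RNA libraries for each of the 6 groups and 12 in all. JQ1 blocks the bromodomains by which BET proteins read acetylated histones. In dBET6 a ligand derived from JQ1 is linked to a ligand of cereblon, a ubiquitin ligase receptor, so that bound BET proteins are degraded. Nothing in the labels says whether the resistant line is a clone, whether JQ1 was withdrawn before the experiment, or whether replicates come from different cultures. The spread that p-values rest on may therefore be technical.

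MYC binds DNA only as a dimer with MAX, at E-boxes with the core CACGTG, and raises transcription of genes for ribosome assembly, nucleotide and polyamine synthesis and the cell cycle. The MXD proteins, MXI1 and MNT also need MAX, bind the same sites and recruit SIN3 histone deacetylase complexes, and MGA brings MAX into a Polycomb-type repressor complex, so that the proteins compete for 1 shared partner. MLX dimerizes instead with MLXIP (MondoA) or MLXIPL (ChREBP), sensors of glucose metabolites that turn on TXNIP and ARRDC4, and can also pair with MXD1, MXD4 and MNT. MYC is the best known of the genes whose transcription BET inhibitors lower in blood cancers, and it drives growth in many gliomas.

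Before the members, 3 properties of the libraries matter. The libraries held 24732177 to 40388589 estimated counts, and the 4 dBET6 libraries were the shallowest. The 13 mitochondrially encoded mRNAs took 3.19% to 3.94% of counts in the dBET6 libraries and 1.46% to 2.70% elsewhere, so the make-up of the RNA differed with dBET6. The tests used here centre on the typical gene (TMM scaling). Under it the median log2 fold change of the dBET6 response was -0.01 (parental) and -0.06 (resistant). The median was -0.65 and -1.14 when libraries were scaled to total counts, and -1.78 and -2.12 when scaled to the mitochondrial mRNAs. For JQ1 the medians were -0.10 and -0.17, and -0.28 and -0.56, beside 0.01 and 0.01 under TMM. Of all genes called with dBET6, 48.5% (parental) and 47.5% (resistant) were higher under TMM, 30.6% and 22.5% under total counts, and 11.4% and 8.94% under mitochondrial scaling. With JQ1 the shares were 46.7% and 47.4% under TMM, 36.5% and 28.3% under total counts, and 21.5% and 6.67% under mitochondrial scaling. Which scaling is nearest to RNA per cell cannot be told from these files, so changes below are relative to the typical gene, and directions that another scaling turns are named. VIM, a mesenchymal marker, was high, which alone does not identify the line, and the levels of the other glioma markers are not given here. CDKN2A and MTAP, which U87 is known to lack, stood at no more than 0.144 FPKM. Beside them stood the immune and endothelial markers PTPRC, CD3E, VWF and CDH5 at no more than 0.238 FPKM in any of the 12 libraries. All 11 markers of the glioma list that holds VIM were tested. JQ1 raised 2 and lowered 6 in the parental line, and 1 and 6 in the resistant line. With dBET6 the counts were 6 and 2, and 9 and 1. Of 17 markers of other cell types, 12 had enough counts to be tested, and dBET6 raised 6 and lowered 6 of them in the parental line, and 5 and 4 in the resistant line. Over all genes JQ1 raised 22.8% and lowered 26.1% (parental), and 20.8% and 23.1% (resistant). For dBET6 the shares were 37.0% and 39.3%, and 35.7% and 39.5%. The most abundant was CD68, a lysosomal protein used as a macrophage marker, at 166 to 257 FPKM without dBET6 and 389 to 825 with it. FPKM summed over all genes was also higher with dBET6, as described below. The part of these genes in the members' changes was not tested. In bulk RNA, fewer cells of a type and less RNA per cell cannot be told apart. HEXIM1, whose RNA rises when BET proteins are blocked, rose with JQ1 in both lines (2.53 ± 0.10 and 2.06 ± 0.097).

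Levels per transcript length were compared on the deposited FPKM (fragments scaled to transcript length and, by a step not stated, between libraries). This was not plain scaling to depth. Summed over all genes it was 649818 to 812174 in DMSO and JQ1 libraries and 1711308 to 2298108 with dBET6. Levels below are therefore compared between genes of 1 group. As TPM, whose total is the same in every library, MYC in resistant cells was 37.8 and 35.0 in DMSO and 43.6 and 44.8 with dBET6. In parental cells in DMSO, MAX stood highest at 86.1 FPKM ± 3.00 (SD, n = 2), followed by MLX at 37.3 ± 2.81, MYC at 30.7 ± 0.289, MNT at 29.7 ± 1.86 and MXD3 at 16.2 ± 3.84. MXD4 (8.48 ± 0.999), MXI1 (6.91 ± 0.115) and MGA (4.02 ± 0.835) were lower, and MXD1 was lowest of the detected members at 1.04 ± 0.178. MYC and MNT lay within their spread of each other on this scale. That tie rests on non-coding transcripts of MNT, since the TPM of protein-coding transcripts put MNT at 11.5 and 13.5 and MYC at 46.1 and 44.5. MYCN was essentially unread: 4 counts in all 12 libraries together, at most 1 in a library, so it could not be tested. The other 9 members entered the test. In resistant cells in DMSO the order was nearly the same, with MAX at 55.5 ± 6.42, MLX at 35.0 ± 1.56, MNT at 30.9 ± 1.86, MYC at 23.9 ± 0.921 and MXD1 again lowest at 2.14 ± 0.276. With dBET6 the order differed between the lines. MAX still led in parental cells at 65.9 ± 10.3, ahead of MXD4 at 33.3 ± 2.20. In resistant cells MYC led at 102 ± 1.98, ahead of MAX at 45.8 ± 4.13. MAX levels on this scale rest partly on a short transcript described further on.

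**Figure D1:**
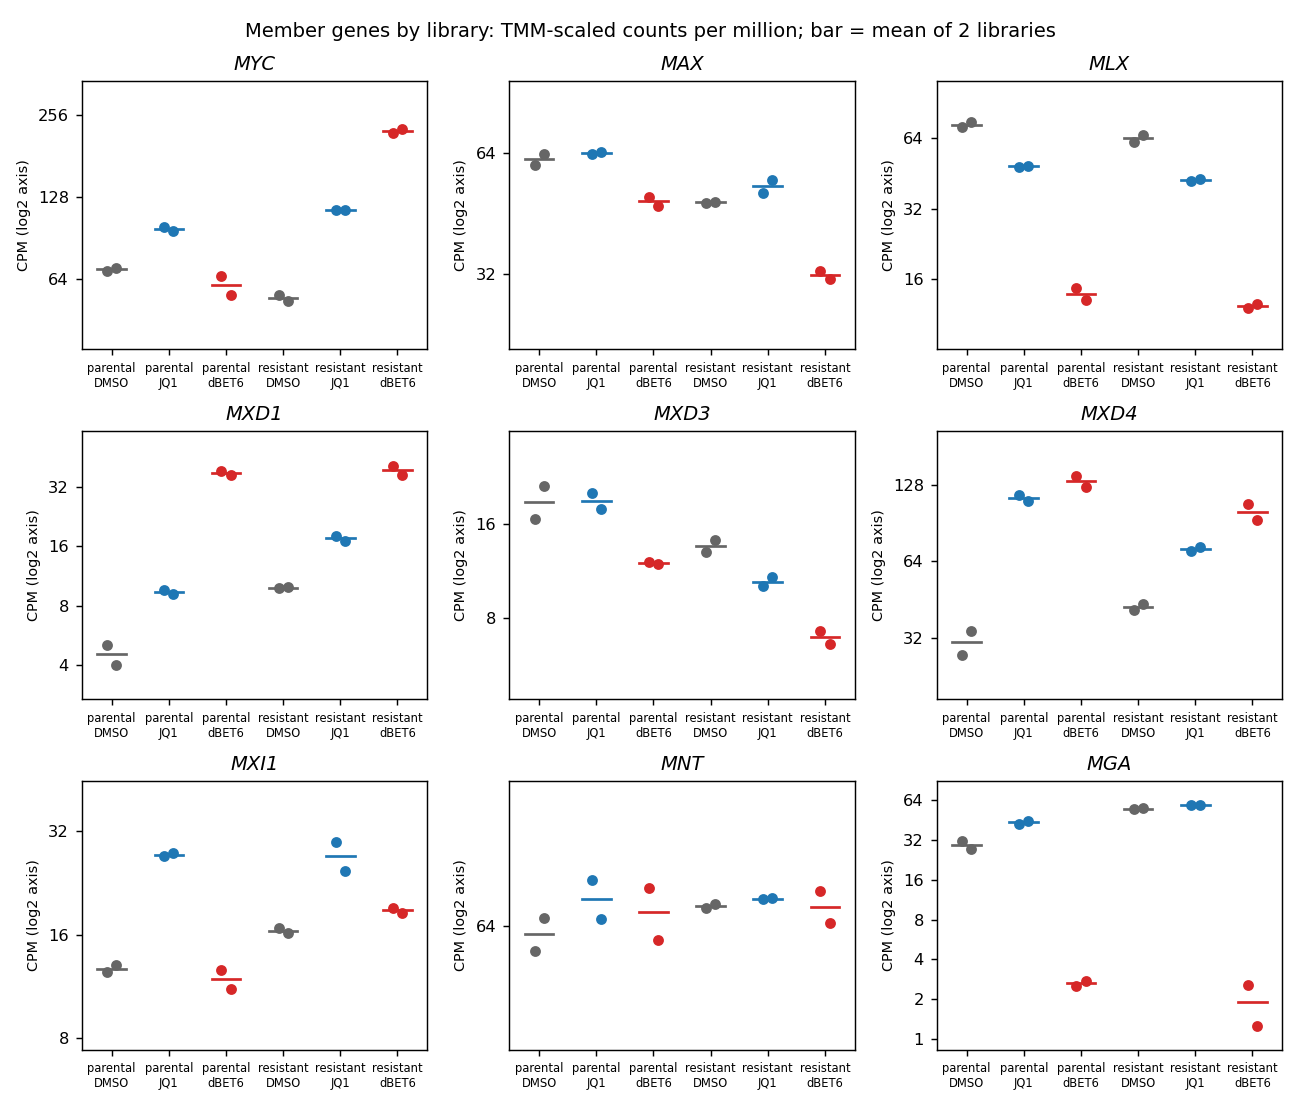
Each panel plots 1 member in the 12 libraries as TMM-scaled counts relative to library depth (CPM) on a log2 axis, with 2 points and their mean (bar) for each line and treatment, in grey for DMSO, blue for JQ1 and red for dBET6. On this TMM scale MYC is highest in the resistant dBET6 libraries (221 and 228 CPM), MGA and MLX are lowest in all 4 dBET6 libraries, and MXD1 is highest in them.

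MYC, the activating factor of the network, was not lowered by JQ1 in either line. In parental cells it stood at 68.7 and 70.0 CPM in DMSO, 99.5 and 96.4 in JQ1 and 65.3 and 55.8 in dBET6. The 2 JQ1 libraries lay above and the 2 dBET6 libraries below both DMSO libraries. In resistant cells it stood at 55.7 and 52.9 CPM in DMSO, 115 in both JQ1 libraries, and 221 and 228 in dBET6. Here both compounds gave values above DMSO with wide gaps, and the dBET6 libraries were the highest of all 12. JQ1 raised MYC 1.41-fold in parental cells (log2 fold change 0.50 ± 0.085 SE, adjusted p = 1.877e-05, edgeR's quasi-likelihood test with Benjamini-Hochberg adjustment, as in all tests below) and 2.12-fold in resistant cells (1.08 ± 0.086, adjusted p = 5.714e-11). Mitochondrial scaling kept both directions but ended the parental call (0.20, adjusted p = 0.4718). dBET6 raised MYC 4.13-fold in resistant cells (2.05 ± 0.088, adjusted p = 1.218e-17), against 0.97 under total counts and -0.02 under mitochondrial scaling, where the direction turned and the call was lost. The fall with dBET6 in parental cells was small (-0.19 ± 0.087, adjusted p = 0.04576) and not stable. It passed no longer without the second parental DMSO library (-0.23, adjusted p = 0.0545) or the second parental dBET6 library (-0.12, adjusted p = 0.2366), nor with the median-of-ratios size factors (-0.07, adjusted p = 0.4748), and it turned to 0.17 among genes with a mean of at least 10 CPM. Under total counts it was -0.83 and under mitochondrial scaling -1.97.

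MAX, the shared partner, was lower with dBET6 in both lines, and its JQ1 changes did not pass. Parental libraries held 59.6 and 63.7 CPM in DMSO, 63.5 and 64.4 in JQ1 and 49.7 and 47.3 in dBET6. Resistant libraries held 48.0 and 48.4 in DMSO, 51.0 and 55.0 in JQ1 and 32.5 and 31.2 in dBET6. The JQ1 and DMSO libraries overlapped in parental cells, and the dBET6 libraries were lowest in both lines. JQ1 left MAX at 0.05 (95% interval -0.12 to 0.22, adjusted p = 0.6331) and 0.14 (-0.04 to 0.31, adjusted p = 0.2005). dBET6 lowered it by -0.34 ± 0.086 (adjusted p = 0.0007277) in parental and -0.60 ± 0.090 (adjusted p = 9.911e-07) in resistant cells, although among genes with a mean of at least 10 CPM the parental value turned to 0.02. On log2(FPKM + 1) with limma the resistant value was -0.27 and did not pass (adjusted p = 0.133), and the JQ1 rise in resistant cells did pass (0.59, adjusted p = 0.01443).

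MXD1, which pairs with MAX in cells leaving the cycle, rose with both compounds in both lines. Its parental libraries held 5.05 and 4.04 CPM in DMSO, 9.68 and 9.23 in JQ1 and 38.5 and 36.8 in dBET6, and its resistant libraries 9.89 and 9.92, 18.1 and 17.0, and 40.8 and 36.8. Every treated library lay above the DMSO libraries of its line, and both lines reached about the same level in dBET6 from different starting points. JQ1 raised it 2.08-fold (1.06 ± 0.122, adjusted p = 4.304e-08) and 1.77-fold (0.83 ± 0.108, adjusted p = 4.603e-07), and dBET6 8.26-fold (3.05 ± 0.119, adjusted p = 2.266e-18) and 3.92-fold (1.97 ± 0.111, adjusted p = 3.229e-15). The resistant rises did not pass under mitochondrial scaling (0.25 with JQ1, and -0.10, the other direction, with dBET6). Exons of MXD1 overlap those of SNRNP27 on the same strand, between which kallisto divides reads.

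MXD4, a related repressor, rose with both compounds in both lines. Parental libraries held 27.4 and 33.9 CPM in DMSO, 117 and 111 in JQ1 and 139 and 126 in dBET6. Resistant libraries held 41.2 and 43.6 in DMSO, 70.0 and 73.2 in JQ1 and 107 and 93.3 in dBET6. All treated libraries lay above DMSO, and the resistant JQ1 libraries lay well below the parental ones. JQ1 raised it 3.72-fold in parental (1.89 ± 0.10, adjusted p = 1.454e-14) and 1.69-fold in resistant cells (0.76 ± 0.098, adjusted p = 3.481e-07, but 0.18 and not passing under mitochondrial scaling). dBET6 raised it 4.32-fold (2.11 ± 0.101, adjusted p = 1.632e-16) in parental cells, a value of 0.33 that did not pass under mitochondrial scaling. In resistant cells the dBET6 rise was 2.37-fold (1.24 ± 0.10, adjusted p = 6.662e-12), which was 0.17 and did not pass under total counts and turned to -0.82 under mitochondrial scaling.

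The 250 bases before the RefSeq start sites of MXD1 and MXD4, the repressors that rose with both compounds, and of MLX, which fell with both, are shown with each CACGTG core in capitals (assembly GRCh38.p14). The E-box is palindromic, so a single search covers both strands. MXD4 held it 238 bases before the start and MLX 50 bases before it, and MXD1 held none.
MXD1 (chr2:69914859-69915108, plus strand): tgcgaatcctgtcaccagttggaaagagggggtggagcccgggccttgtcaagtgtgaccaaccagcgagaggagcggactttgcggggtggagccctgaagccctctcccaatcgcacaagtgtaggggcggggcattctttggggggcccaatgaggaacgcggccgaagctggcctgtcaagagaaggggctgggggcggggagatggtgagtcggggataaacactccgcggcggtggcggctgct
MXD4 (chr4:2262110-2262359, minus strand): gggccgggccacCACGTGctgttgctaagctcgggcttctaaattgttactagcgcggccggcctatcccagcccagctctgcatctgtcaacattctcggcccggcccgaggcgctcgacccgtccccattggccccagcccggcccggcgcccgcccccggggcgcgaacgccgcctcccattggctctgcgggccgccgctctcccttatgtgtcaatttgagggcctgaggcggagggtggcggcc
MLX (chr17:42566850-42567099, plus strand): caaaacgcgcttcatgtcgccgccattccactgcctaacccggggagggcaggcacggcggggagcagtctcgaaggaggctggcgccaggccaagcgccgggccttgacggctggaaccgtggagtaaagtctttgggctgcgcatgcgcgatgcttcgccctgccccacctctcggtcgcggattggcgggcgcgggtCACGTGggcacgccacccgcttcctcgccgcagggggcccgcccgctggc
Over the 9 members searched (MYC was left out), 3 of 14 start-site windows held the core, the third being that of MNT, 193 bases before its start. Among 35116 promoter windows of the same length 6.34% held it. A match describes these letters only and says nothing of binding in these cells.

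MXI1, a further repressor that pairs with MAX, was raised by JQ1 in both lines, while its dBET6 changes did not pass. Its libraries held 12.4 and 13.1 CPM in parental DMSO, 27.1 and 27.5 in JQ1 and 12.7 and 11.1 in dBET6, and 16.7 and 16.2, 29.7 and 24.4, and 19.2 and 18.5 in resistant cells. The JQ1 libraries were the highest in each line, and in parental cells the dBET6 and DMSO libraries overlapped. JQ1 raised it 2.14-fold (1.10 ± 0.106, adjusted p = 1.761e-09) and 1.65-fold (0.72 ± 0.104, adjusted p = 2.057e-06, but 0.13 and not passing under mitochondrial scaling). The dBET6 changes of -0.10 (95% interval -0.34 to 0.14) and 0.20 (-0.04 to 0.43) did not pass. They depended on the scaling, since the resistant value passed as a rise with median-of-ratios size factors (0.38, adjusted p = 0.003399) and as a fall under total counts (-0.88, adjusted p = 5.61e-07). The parental value passed as a fall under total counts (-0.74) and as a rise among genes with a mean of at least 10 CPM (0.27).

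MXD3, a family member linked to dividing cells, did not join the rise. It held 16.5 and 21.1 CPM in parental DMSO, 20.1 and 17.9 in JQ1 and 12.1 and 11.9 in dBET6, and in resistant cells 13 and 14.2, 10.2 and 10.8, and 7.28 and 6.61. Only the parental JQ1 libraries overlapped their DMSO libraries, and all other treated libraries were lower. dBET6 lowered it by -0.65 ± 0.126 (adjusted p = 4.259e-05) and -0.97 ± 0.142 (adjusted p = 6.022e-07). The parental call was lost among genes with a mean of at least 10 CPM (-0.28, adjusted p = 0.05094) and by limma on log2(FPKM + 1) (-0.33, adjusted p = 0.08891). JQ1 lowered it in resistant cells by -0.38 ± 0.122 (adjusted p = 0.01255), a call lost without the second resistant DMSO library (-0.31, adjusted p = 0.1218) or the first resistant JQ1 library (-0.33, adjusted p = 0.1019). In parental cells the JQ1 value was 0.01 (95% interval -0.22 to 0.25, adjusted p = 0.9371). Its exons overlap those of RAB24 on the same strand and PRELID1 on the other.

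MNT, the broadly expressed repressor, was the steadiest member on the TMM scale. It ranged only from 57.6 CPM in the first parental DMSO library to 77.4 in the first parental JQ1 library, and every other library lay between them. Its 4 responses were 0.21 (JQ1, parental, adjusted p = 0.0913), 0.04 (JQ1, resistant), 0.13 (dBET6, parental) and -0.00 (dBET6, resistant, 95% interval -0.22 to 0.21), none past the threshold. Other scalings moved MNT by about the same amount as the other members, which took some of its values past the threshold. The parental dBET6 value passed as 0.25 with median-of-ratios size factors and as -0.51 under total counts. The resistant dBET6 value passed as -1.08 under total counts (adjusted p = 4.361e-09).

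MGA, the largest protein of the network, lost nearly all its reads in dBET6. Its parental libraries held 31.3 and 27.6 CPM in DMSO, 42.4 and 44.7 in JQ1 and 2.52 and 2.74 in dBET6, and its resistant libraries 55.0 and 55.9, 59.4 and 59.5, and 2.54 and 1.25. All 4 dBET6 libraries were far below every other library, with 20 to 53 counts each against 1127 to 2749. dBET6 lowered MGA by -3.48 ± 0.148 (11.2-fold, adjusted p = 1.26e-17) and -4.89 ± 0.161 (29.6-fold, adjusted p = 6.901e-20), and by more under total counts (-4.12 and -5.96) and mitochondrial scaling (-5.25 and -6.95). With single libraries left out the resistant value ran from -5.51 to -4.48. JQ1 raised it 1.48-fold in parental cells (0.57 ± 0.103, adjusted p = 4.347e-05, but 0.28 and not passing under mitochondrial scaling, and 0.54 and not passing by limma on log2(FPKM + 0.1), adjusted p = 0.1012). In resistant cells the JQ1 value was 0.10 (95% interval -0.10 to 0.31, adjusted p = 0.4472), which turned to -0.48 and passed under mitochondrial scaling.

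MLX, the partner of the glucose sensors, fell with both compounds in both lines and under every setting tried. It held 71.3 and 74.8 CPM in parental DMSO, 48.4 and 48.8 in JQ1 and 14.6 and 13 in dBET6, and in resistant cells 61.7 and 66.2, 41.9 and 42.9, and 12 and 12.5. The 3 treatments did not overlap in either line, with DMSO highest and dBET6 lowest. JQ1 lowered it by -0.59 ± 0.085 in each line (1.5-fold, adjusted p = 1.548e-06, and 1.51-fold, adjusted p = 1.798e-06). dBET6 lowered it by -2.40 ± 0.096 (5.29-fold, adjusted p = 4.202e-18) and -2.38 ± 0.101 (5.21-fold, adjusted p = 9.173e-18).

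**Figure D2:**
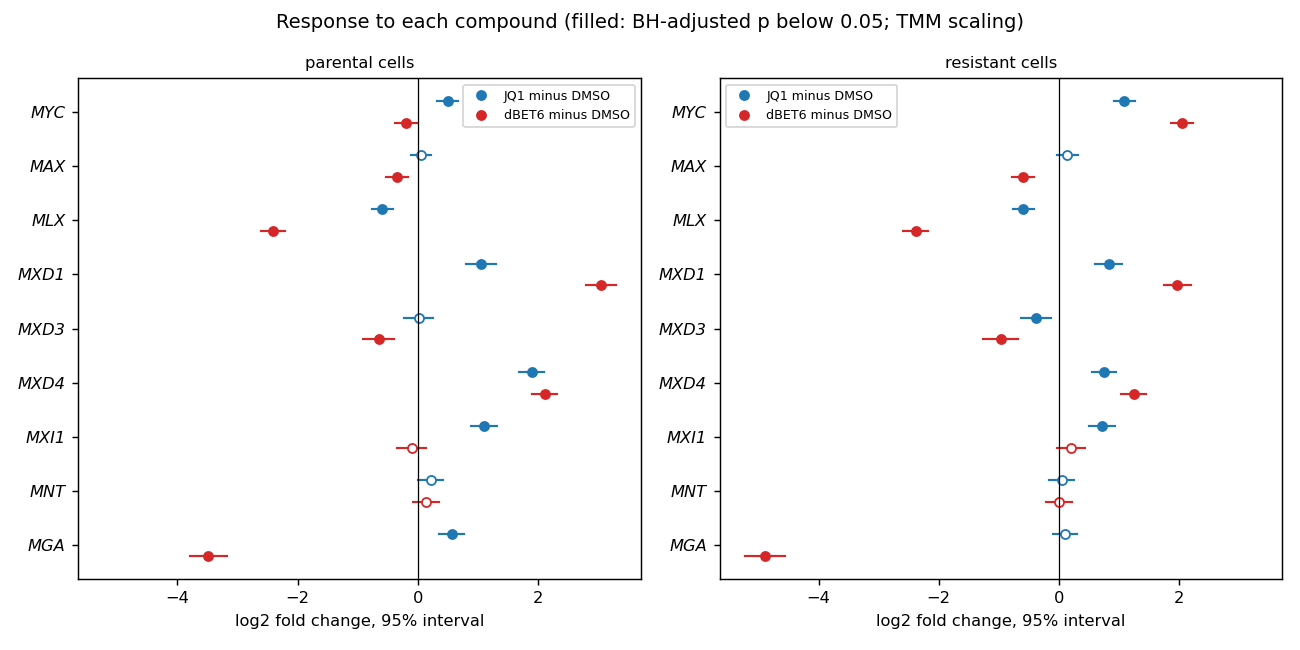
Log2 fold change of the 9 tested members for JQ1 minus DMSO (blue) and dBET6 minus DMSO (red), with 95% intervals, in parental cells (left) and resistant cells (right). Filled points passed the threshold of 0.05. MLX lies left of zero for both compounds, MXD1 and MXD4 lie right of it, MGA lies far left with dBET6 only, and MYC with dBET6 lies near zero in parental (-0.19) and at 2.05 in resistant cells. Mitochondrial scaling puts MYC, MXD1 and MXD4 below zero with dBET6 in resistant cells (-0.02, -0.10 and -0.82).

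Counted together, 5 members rose and 1 fell with JQ1 in parental cells, where 48.9% of the 19093 genes tested passed. In resistant cells 4 rose and 2 fell with JQ1, against 43.9% of all genes. With dBET6, 2 rose and 5 fell in parental cells (76.3% of all genes passed, 37.0% higher and 39.3% lower) and 3 rose and 4 fell in resistant cells (75.2%, as 35.7% and 39.5%). With dBET6 the shares of members called are not far from the backgrounds. With JQ1, 6 of the 9 members tested were called in each line, a larger share than over all genes. Most of these rose, while over all genes 22.8% (parental) and 20.8% (resistant) were higher with JQ1. No test was made of these shares. What separates the members is size and direction, which ranged with dBET6 from -3.48 to 3.05 in parental and from -4.89 to 2.05 in resistant cells. The members' median was 0.50 and 0.14 with JQ1 and -0.19 and -0.00 with dBET6 (parental and resistant), beside 0.01, 0.01, -0.01 and -0.06 over all genes.

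**Figure D3:**
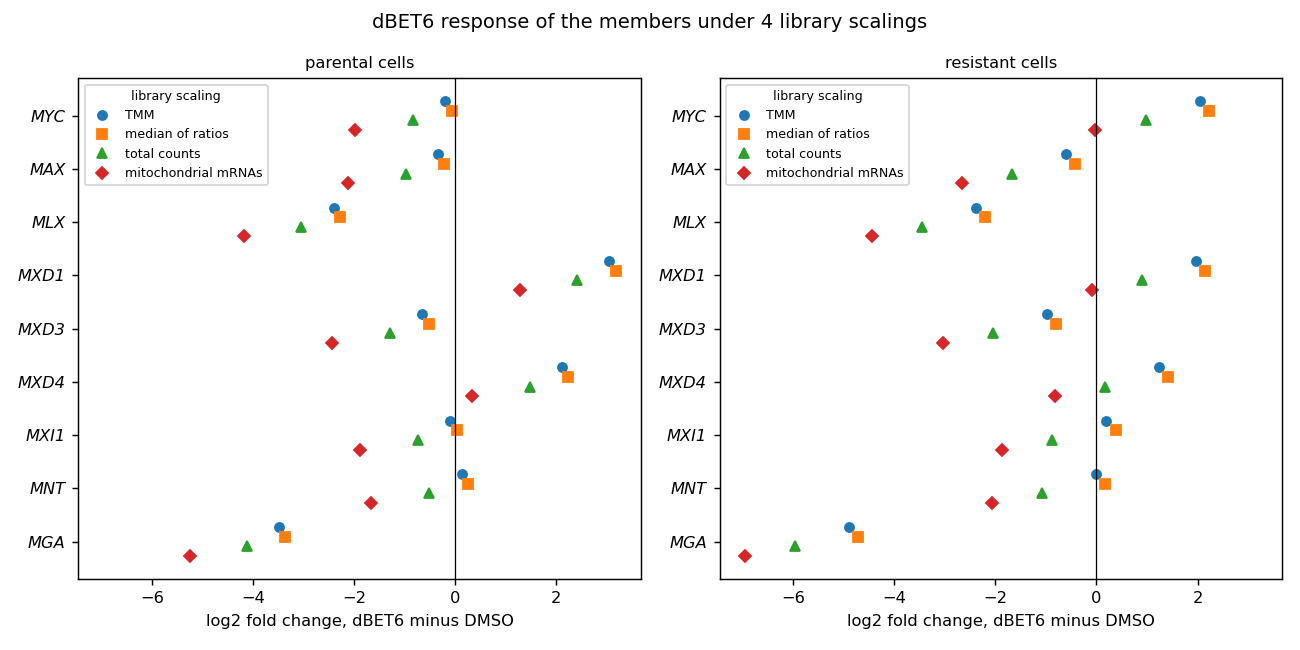
Log2 fold change of each member with dBET6 minus DMSO in parental (left) and resistant cells (right) under 4 library scalings: TMM (circles), median of ratios (squares), total counts (triangles) and the mitochondrial mRNAs (diamonds). Each scaling shifts all members by about the same amount, so their order is kept, while MYC in resistant cells goes from 2.05 (TMM) to -0.02 (mitochondrial) and MGA and MLX stay below zero throughout.

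The compounds, which share a BET ligand and differ in the linked cereblon ligand, were compared directly at 1000 nM and 24 h, in 2 contrasts (1 for each line), with p-values adjusted over all genes. In parental cells 2 members were higher and 6 lower in dBET6 than in JQ1 (74.6% of all genes passed, 36.2% higher and 38.4% lower), and in resistant cells 3 were higher and 5 lower (74.2%, as 35.4% and 38.8%). MGA was lower in dBET6 by -4.05 ± 0.146 and -4.99 ± 0.161, and MLX by -1.81 ± 0.097 and -1.79 ± 0.102. MXI1 was lower by -1.20 ± 0.114 (adjusted p = 2.771e-10) and -0.52 ± 0.111 (adjusted p = 0.0001371), and MXD3 by -0.66 and -0.60. Both resistant calls were lost among genes with a mean of at least 10 CPM (MXI1 -0.12, adjusted p = 0.2938, and MXD3 -0.19, adjusted p = 0.2331) and by limma on log2(FPKM + 1) (-0.07 and -0.12). MAX was lower by -0.40 ± 0.086 and -0.74 ± 0.090, the former -0.08 and not passing with that filter (adjusted p = 0.3456). MXD1 was higher in dBET6 by 1.99 ± 0.111 (adjusted p = 4.853e-15) and 1.14 ± 0.107 (adjusted p = 1.77e-10), the latter -0.34 under mitochondrial scaling. MYC was lower in dBET6 in parental cells (-0.69 ± 0.087, adjusted p = 5.672e-08) and higher in resistant cells (0.96 ± 0.085, adjusted p = 5.292e-11), the latter 0.08 and not passing under total counts and -0.52 under mitochondrial scaling. MXD4 was higher in resistant cells (0.49 ± 0.098, adjusted p = 6.836e-05) but -0.39 under total counts and -1.005 under mitochondrial scaling. Its parental difference of 0.22 ± 0.096 (adjusted p = 0.04423) was lost on leaving out any library but the second parental dBET6 library and turned to -0.30 under total counts. For MNT no difference passed under TMM, with values of -0.08 (95% interval -0.30 to 0.13) and -0.05 (-0.27 to 0.17), which does not show that the compounds act alike on it. Under total counts both passed as falls (-0.61, adjusted p = 1.579e-05, and -0.93, adjusted p = 4.542e-08). The filter of a mean of at least 10 CPM turned both directions.

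In DMSO the lines differed in 7 members, 4 higher and 3 lower in resistant cells, while 38.5% of all genes passed. MXD1 was 2.17-fold higher in resistant cells (1.12 ± 0.120, adjusted p = 1.978e-08) and MGA 1.88-fold higher (0.91 ± 0.102, adjusted p = 4.205e-08). MXD4 was 1.39-fold higher (0.47 ± 0.099, adjusted p = 0.0004055), and MXI1 1.29-fold higher (0.37 ± 0.107, adjusted p = 0.007589). The MXI1 call was lost without the first parental DMSO library (0.33, adjusted p = 0.06141) or the first resistant DMSO library (0.34, adjusted p = 0.0775), and both MXD4 and MXI1 missed the threshold under mitochondrial scaling. By limma on log2(FPKM + 1) with no filter 4 calls between the lines were lost: MAX (-0.63), MXD3 (-0.33), MXD4 (0.34) and MXI1 (0.19). MYC was 1.28-fold lower (-0.35 ± 0.085, adjusted p = 0.001603), as was MAX (-0.36 ± 0.083, adjusted p = 0.001199). MXD3 was 1.38-fold lower (-0.47 ± 0.117, adjusted p = 0.002291), a call lost without the second parental DMSO library (-0.29, adjusted p = 0.1041). MLX (-0.19, adjusted p = 0.07204) and MNT (0.17, adjusted p = 0.2109) did not pass.

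The responses of the lines were then set against each other by an interaction term. For dBET6 the largest difference was that of MYC, whose response was higher in resistant cells by 2.24 ± 0.123 (95% interval 1.99 to 2.49, adjusted p = 3.667e-13). It stayed past the threshold under total counts (1.80) and mitochondrial scaling (1.95). The fall of MGA was larger in resistant cells by -1.41 ± 0.259 (adjusted p = 0.0001524), from a DMSO level 1.88-fold higher there. Its dBET6 libraries held 2.54 and 1.25 CPM, against 2.52 and 2.74 in parental cells. With single libraries left out the MGA difference ran from -1.98 to -0.95. MXD1 and MXD4 rose less in resistant cells, by -1.08 ± 0.160 (adjusted p = 1.084e-05) and -0.87 ± 0.139 (adjusted p = 2.954e-05). So 1 of 9 members was higher and 3 lower, beside 27.9% of all genes. On the FPKM scale MYC alone remained past the threshold. For MLX the difference was 0.02 (-0.27 to 0.31), which turned to -0.42 and passed under total counts. MXI1 differed by 0.29 (-0.04 to 0.63), MNT by -0.14, MAX by -0.25 and MXD3 by -0.33, none past the threshold. Under total counts MNT (-0.57, adjusted p = 0.003069), MAX (-0.69, adjusted p = 5.655e-05) and MXD3 (-0.76, adjusted p = 0.003714) passed, and MXI1 was at -0.14.

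For JQ1, 1 member responded more and 2 less in resistant cells, against 6.50% of all genes. MYC rose more there by 0.58 ± 0.120 (95% interval 0.34 to 0.83, adjusted p = 0.002711), which was 0.31 and did not pass under mitochondrial scaling (adjusted p = 0.6729) or on log2(FPKM + 1) (0.55, adjusted p = 0.05843). MXD4 rose less by -1.14 ± 0.138 (-1.42 to -0.86, adjusted p = 3.362e-06), with -1.21 under total counts and -1.40 under mitochondrial scaling. By limma on log2(FPKM + 1) with no filter it was -0.90 and missed the threshold (adjusted p = 0.05047). The MGA difference of -0.46 ± 0.143 (adjusted p = 0.04984) was lost on leaving out 9 of the 12 libraries, and held without the first parental DMSO library or either resistant dBET6 library. The other 6 members did not pass, MLX with -0.00 (-0.25 to 0.24).

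**Figure D4:**
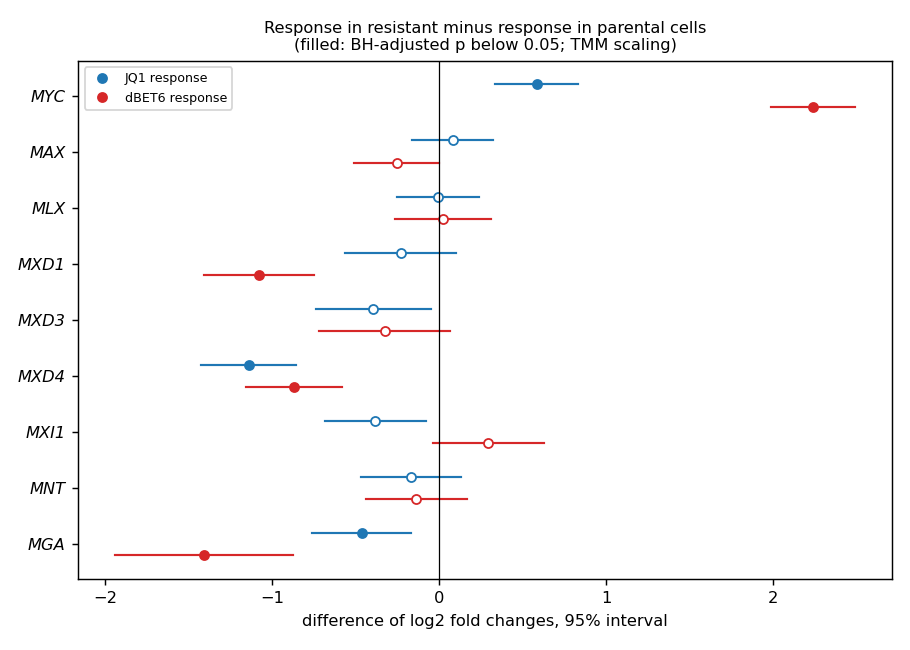
Response in resistant minus response in parental cells, as a difference of log2 fold changes with 95% intervals, for JQ1 (blue) and dBET6 (red). Filled points passed the threshold of 0.05. MYC with dBET6 (2.24) lies alone far to the right, and MXD4 lies left of zero for both compounds.

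Ratios inside a library do not depend on how libraries are scaled. The FPKM of MYC over that of MAX was 0.368 and 0.346 in parental DMSO, 0.489 and 0.376 in JQ1 and 0.381 and 0.400 in dBET6. In resistant cells it was 0.482 and 0.387 in DMSO, 0.576 and 0.612 in JQ1 and 2.06 and 2.40 in dBET6. By FPKM the resistant dBET6 libraries were the only ones with more MYC than MAX. The summed FPKM of the 6 MAX-binding repressors over that of MYC and MYCN was 2.11 and 2.22 in parental DMSO, 2.41 and 2.21 in JQ1 and 3.75 and 3.65 in dBET6. In resistant cells it was 2.77 and 3.23 in DMSO, 1.71 and 1.64 in JQ1 and 1.07 and 0.856 in dBET6. The dBET6 libraries were thus highest in parental cells and lowest in resistant cells. The levels of these ratios rest on short non-coding transcripts of MNT and MAX. With protein-coding transcripts alone, an alternative added after the data were seen, the ratio of repressors to MYC was 1.27, 1.56 and 2.40 in parental DMSO, JQ1 and dBET6, and 1.85, 1.05 and 0.499 in resistant cells. The ratio of MYC to MAX was then 0.591 and 0.617, 0.979 and 0.915, and 0.553 and 0.502 in parental DMSO, JQ1 and dBET6. In resistant cells it was 0.651 and 0.629 in DMSO, 1.21 and 1.10 in JQ1 and 2.85 and 2.77 in dBET6, so that the JQ1 libraries also lay above 1.

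**Figure D5:**
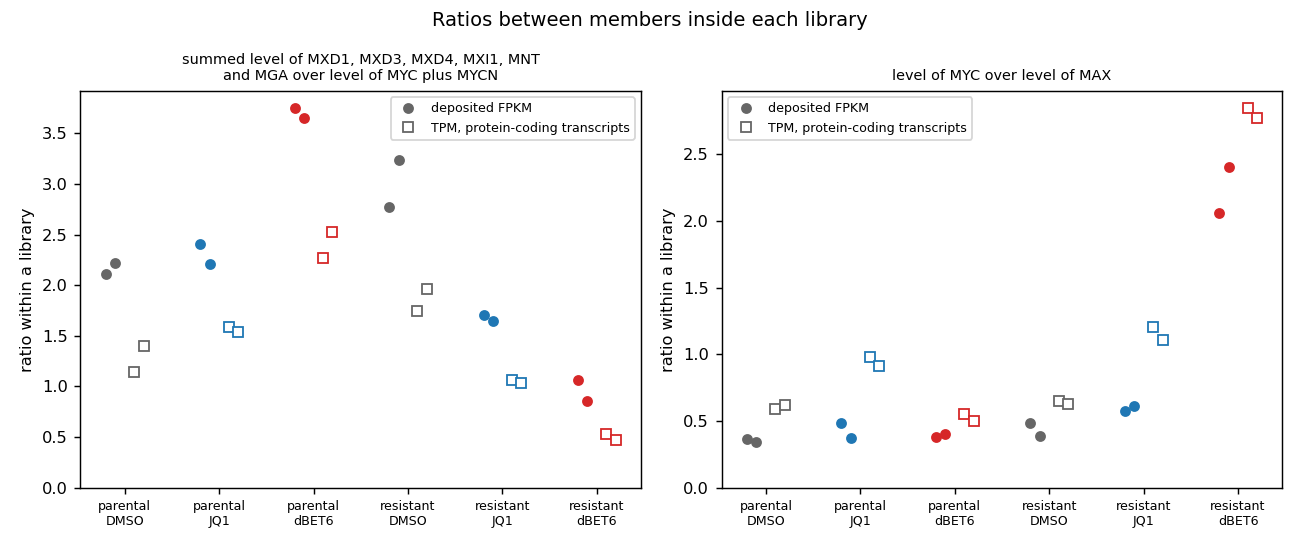
Left, the summed level of 6 repressors (MXD1, MXD3, MXD4, MXI1, MNT, MGA) over that of MYC plus MYCN in each library, and right, the level of MYC over that of MAX, from deposited FPKM (filled circles) and from TPM of protein-coding transcripts (open squares), in grey for DMSO, blue for JQ1 and red for dBET6. The resistant dBET6 libraries are lowest on the left (1.07 and 0.856 by FPKM) and highest on the right (2.06 and 2.40).

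The transcript estimates of several members changed in make-up with dBET6. The MAX transcript MAX-216, protein-coding and 615 bases long, took 42.0% to 56.1% of the gene's TPM in the dBET6 libraries and 15.9% to 27.9% elsewhere, with no overlap. MAX-209, a 327-base retained-intron transcript, took 7.59% to 22.6% with dBET6 and 21.0% to 56.5% elsewhere, which overlap. Of the MLX transcripts, MLX-202 rose in share to 21.8% to 51.4% from 10.1% to 17.4% and MLX-203 stood at 31.7% to 41.3% against 45.1% to 65.0%. MYC kept its main transcript MYC-202, which took 63.5% to 65.5% with dBET6 and 67.1% to 76.8% elsewhere. The MNT retained-intron transcript MNT-205 took 8.60% to 13.3% with dBET6 and 24.1% to 29.5% elsewhere, while the shares of its main protein-coding transcript overlapped. The main MGA transcript, MGA-201, took 0.0% to 39.5% with dBET6 and 20.4% to 56.6% elsewhere, on few counts with dBET6. Shares are kallisto's apportioning of reads between overlapping transcripts, and no test was made of them.

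The partner and target genes of MLX can be read beside it. MLXIP, which encodes MondoA, rose with JQ1 in both lines (0.52 ± 0.094, adjusted p = 4.155e-05, and 0.59 ± 0.094, adjusted p = 7.412e-06) and fell with dBET6 (-0.93 ± 0.098, adjusted p = 2.29e-09, and -0.88 ± 0.099, adjusted p = 5.571e-09), although on log2(FPKM + 1) the resistant dBET6 value turned to 0.32. ARRDC4, an arrestin-like gene that MondoA turns on, held 22.3 and 24.8 CPM in parental DMSO, 77.9 and 89.0 in JQ1 and 522 and 542 in dBET6. In resistant cells it held 33.5 and 29.2, 118 and 112, and 2567 and 2615. Each step was without overlap, and the resistant dBET6 libraries were highest. It rose 3.54-fold and 3.67-fold with JQ1 and 22.6-fold and 82.5-fold with dBET6 (4.50 ± 0.106, adjusted p = 8.509e-23, and 6.37 ± 0.114, adjusted p = 2.116e-25), and these directions held under every scaling. The dBET6 rise was larger in resistant cells by 1.87 ± 0.133 (adjusted p = 8.13e-11). PKLR, listed as a target with ARRDC4, was higher with dBET6 in both lines, while its JQ1 changes did not pass in either. The filter can keep a gene through a single group, so PKLR may have been tested only because its dBET6 libraries were high. Its dBET6 calls therefore only describe. The remaining target, TXNIP, had no paired transcripts and was not tested. Its deposited FPKM was 45.1 and 41.8 in parental DMSO, 174 and 199 in JQ1 and 1096 and 1012 in dBET6, and 63.0 and 63.4, 341 and 337, and 5491 and 6093 in resistant cells. TXNIP and ARRDC4 were thus highest in the dBET6 libraries, where MLX was lowest in each line. In dBET6 the lines were close in MLX, with parental and resistant means of 13.8 and 12.3 CPM, and of 6.83 and 7.39 FPKM. The TXNIP values are on the FPKM scale, whose sum over all genes was also higher with dBET6.

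Among 78 MYC target genes for ribosome assembly, metabolism and replication, 75 were tested. With JQ1 in parental cells 9 were higher and 40 lower (median -0.25, against 0.01 over all genes, of which 22.8% were higher and 26.1% lower). In resistant cells 23 were higher and 17 lower (median 0.04, against 0.01, with 20.8% and 23.1%). ODC1, which makes polyamines and is a classic MYC target, rose with JQ1 in both lines (1.04 ± 0.089 and 1.76 ± 0.090), as did IMPDH2 of guanine nucleotide synthesis (0.82 ± 0.085 and 1.39 ± 0.086). MCM5, a subunit of the replicative helicase, fell (-1.70 ± 0.101 and -1.36 ± 0.10). The JQ1 response was higher in resistant cells for 26 of the 75 and lower for 1, HK2 (median difference 0.33). Over all genes 3.62% were higher and 2.88% lower, with a median of -0.00. With total counts the split was 22 and 1, and with mitochondrial scaling 0 and 1 (median 0.07). Total counts called 1315 of all genes, against 1241 under TMM, and the shares given over all genes are those under TMM. LYAR, a nucleolar protein, differed by 0.80 ± 0.134 (adjusted p = 0.0002932), WDR74, a ribosome assembly factor, by 0.75 ± 0.129 (adjusted p = 0.0004166), and NOP56, a core protein of box C/D particles, by 0.68 ± 0.116 (adjusted p = 0.0003658). HK2, hexokinase 2, differed by -0.67 ± 0.159 (adjusted p = 0.0155, which leaving out any of 7 libraries took past 0.05). These genes started from different levels, since in DMSO 36 of 75 were lower in resistant cells and 6 higher (median -0.20), LYAR by -1.22 ± 0.094.

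With dBET6, 22 MYC targets were higher and 40 lower in parental cells (median -0.28, against -0.01 over all genes), where MYC was at -0.19. In resistant cells, where MYC was at 2.05 under TMM and -0.02 under mitochondrial scaling, 21 were higher and 43 lower (median -0.45, against -0.06). Over all genes 37.0% were higher and 39.3% lower in the parental line, and 35.7% and 39.5% in the resistant line. The response differed between the lines in both directions, with 12 higher and 14 lower of 75 (median -0.05), near the 13.7% and 14.2% of all genes with their median of -0.05. Under total counts the split was 2 and 55, but that scaling also lowered this difference for every tested member (MLX from 0.02 to -0.42). It called 7448 of all genes, against 5333 under TMM, and the shares above are for TMM only. UTP20, a ribosome assembly factor, fell by -2.88 ± 0.105 and -3.10 ± 0.111. ODC1 rose by 1.93 ± 0.091 and 1.85 ± 0.091 and SRM, spermidine synthase, by 1.42 ± 0.091 and 2.04 ± 0.092, but mitochondrial scaling turned ODC1 in resistant cells (-0.22) and SRM in both lines (-0.36 and -0.03).

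The genes of the proteins that the repressors recruit, and of MYC cofactors and turnover, were counted in the same way. The shares over all genes for each comparison are those given with the MYC targets, and the medians over all genes were 0.01 and 0.01 with JQ1 and -0.01 and -0.06 with dBET6. Of 16 SIN3 complex genes dBET6 raised 3 and lowered 11 in the parental line, and 3 and 12 in the resistant line (medians -0.88 and -0.95), while JQ1 gave 5 and 5, and 5 and 4. SIN3A, the scaffold, fell by -1.95 ± 0.094 and -2.34 ± 0.099, and SAP130, a subunit, by -2.31 ± 0.103 and -2.58 ± 0.110. RBBP7, a histone-binding subunit, rose by 0.60 ± 0.087 and 0.89 ± 0.088 but was -0.04 and -0.19 under total counts. Of 15 genes of the MGA complex none was higher and 9 were lower with JQ1 in parental cells, then 1 and 7 in resistant cells, and dBET6 gave 1 and 14, and 1 and 11 (medians -1.31 and -1.46). L3MBTL2, its methyl-lysine reader, fell by -0.78 ± 0.119 and -0.999 ± 0.123 with JQ1 and by -2.94 ± 0.152 with dBET6 in parental cells. CBX1, a heterochromatin protein counted with the complex, fell by -2.38 ± 0.103 and -3.79 ± 0.129 with dBET6. MGA with its -3.48 and -4.89 lay below the medians of that list in both lines. Of 13 germ cell genes that the MGA complex is known to hold down, only 6 were tested: with dBET6 5 were higher and none lower in parental cells (median 1.81), and 2 and none in resistant cells (median -0.09). Over all genes 37.0% and 35.7% were higher, so the resistant count lies near the background. The filter can keep a gene through a single group, so a gene may have been tested only because its dBET6 libraries were high. The parental count, and the comparison of the lines that follows, therefore only describe. The dBET6 response of 3 of the 6 was lower in resistant cells and of none higher (median difference -1.52), beside 14.2% and 13.7% of all genes.

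MYC cofactor genes (14) gave 2 higher and 6 lower with JQ1 in parental cells, then 1 and 3 in resistant cells, and 3 and 11 with dBET6 in each line (medians -1.38 and -1.28). The JQ1 count in resistant cells lay near or below the 20.8% higher and 23.1% lower of all genes. SMARCB1, a SWI/SNF subunit that binds MYC, fell by -3.48 ± 0.105 and -3.16 ± 0.108 with dBET6, and KAT5, an acetyltransferase, by -3.11 ± 0.128 and -3.02 ± 0.134. Of 19 genes for MYC protein turnover, 6 were higher and 7 lower with JQ1 in parental cells, then 5 and 7 in resistant cells, and 5 and 12, and 4 and 15, with dBET6 (medians -1.27 and -1.26), and all genes passed with JQ1 in 22.8% and 26.1% of cases, and 20.8% and 23.1%. HUWE1, a ubiquitin ligase acting on MYC, rose with JQ1 by 1.08 ± 0.091 and 0.54 ± 0.090, the latter -0.04 under mitochondrial scaling. FBXW7, the ligase receptor that recognises phosphorylated MYC, rose with dBET6 by 1.35 ± 0.115 and 0.73 ± 0.133, but fell in resistant cells under total counts (-0.34) and in both lines under mitochondrial scaling (-0.41 and -1.33). RNA says nothing of the amount of MYC protein.

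Among 8470 genes compared over the 12 libraries, those whose log2 CPM followed a member most closely by Pearson's r included DHCR7 (0.967) for MYC. They were RRP1B (0.991) and GRSF1 (0.990) for MAX, and AKAP8L (0.986) and FOS (0.979) for MXD1. For MXD4 they were IRF7 (0.973) and PCNXL3 (0.959), for MXI1 ZCCHC2 (0.982) and WDR6 (0.967), and for MXD3 RELL2 (0.981) and KIF7 (0.976). MGA was followed by DENND6A (0.998) and CEP350 (0.997) and MLX by MFSD5 (0.998) and ANKRD40 (0.997). MNT, which hardly varied on this scale, had no close companion, with EME2 at 0.809 and SYNGR2 at 0.750. The points share 6 groups and the library scaling, so these values only describe.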

How the data were processed

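PolyA RNA of 12 libraries was measured, 2 for each of 6 groups of line and treatment taken from the sample titles. The deposited files give estimated counts and TPM per transcript, which kallisto made per the file headers, and 1 table of gene FPKM made by the authors. Build hg19 and DESeq2 are named in the submitters' processing notes. Tool versions and the making of the FPKM are not stated there.

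Estimated counts of 196354 transcripts, 92.1% of which could be paired with a gene, were summed over 52271 genes and rounded. The 19093 genes kept by filterByExpr were tested with edgeR 4.0.16 (R 4.3.3): TMM scaling, robust quasi-likelihood test, all 12 libraries in 1 fit with 6 residual degrees of freedom, no replicate block, Benjamini-Hochberg adjustment, threshold 0.05. The common biological coefficient of variation was 7.88%. CPM are TMM-scaled, SD and SE are as named, and intervals are 95%. The alternatives were other scalings, DESeq2 1.42.0, limma 3.58.1 on log2(FPKM + 1) or (FPKM + 0.1), other filters, only the libraries compared, a replicate block and each library left out. The test was checked on simulated counts in which few genes changed and all libraries had the same make-up. That check does not cover the broad changes with dBET6 or the choice of scaling.

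The members and lists were chosen with earlier results of these data known. All members are named. From each other list up to 3 genes with the smallest p in each direction and comparison could be named, and every gene of lists of at most 5. The most similar genes are the 2 protein-coding genes of highest Pearson r among those averaging 10 CPM or more. For MYC 1 of these is not reported here. Promoter letters are from RefSeq (GRCh38.p14), a different build from that of the files.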

Additional observations from a re-analysis of the deposited data

Results flagged for a closer look

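These results are listed because the response to a compound differed between the lines by the interaction term of edgeR's quasi-likelihood test, with n = 2 libraries in each group. The groups are too small for a test of single outlying libraries.

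For JQ1, the response in resistant minus that in parental cells was 0.58 for MYC, -1.14 for MXD4 and -0.46 for MGA. Among the MYC targets it was 0.80 for LYAR, 0.75 for WDR74, 0.68 for NOP56 and -0.67 for HK2. Both DMSO libraries and both JQ1 libraries of a line enter each value. The MGA and HK2 values missed the threshold when most of the single libraries they rest on were left out.

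For dBET6, the difference was 2.24 for MYC, -1.41 for MGA, -1.08 for MXD1 and -0.87 for MXD4, and 1.87 for ARRDC4. MGA rests on 20 to 53 counts in each dBET6 library.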

How the results depend on the processing

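Of 126 results for single genes, the 1512 values with a library left out kept their call in 1472. No result called with or without the library turned direction, while 18 values of uncalled results changed sign. No shared effect of replicate number was seen: the correlation of same-numbered deviations ran from -0.0581 to 0.0609 over 15 pairs of groups. It was taken over all genes tested and cannot show that the samples were unpaired. With the replicate block 123 of the 126 kept their call, and MYC with dBET6 in parental cells (-0.20, adjusted p = 0.05252), MXD4 between the compounds in parental cells (0.22) and MGA in the JQ1 difference (-0.47) lost it. The block called 1145 genes for the JQ1 difference and 5200 for the dBET6 difference, against 1241 and 5333.

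Directions of results called with either setting turned as follows, and 42 values of results called under neither also changed sign. Each scaling moves all genes of a comparison by about the same amount. The medians of the JQ1 and dBET6 responses under total counts and mitochondrial scaling are given in the report. For the filter the cause was not tested. Under total counts: MNT (-0.51) and RBBP7 (-0.0355) with dBET6 in parental cells, MXI1 (-0.88), RBBP7 (-0.19) and FBXW7 (-0.34) in resistant cells, MXD4 between the compounds (-0.30 parental, -0.39 resistant), and MLX in the dBET6 difference (-0.42). Under mitochondrial scaling with dBET6 in parental cells: MNT -1.66, RBBP7 -1.16, FBXW7 -0.41 and SRM -0.36. In resistant cells with dBET6: MYC -0.0225, MXD1 -0.10, MXD4 -0.82, MXI1 -1.87, ODC1 -0.22, RBBP7 -1.18, FBXW7 -1.33 and SRM -0.0289. With JQ1 in resistant cells: MNT -0.53, MGA -0.48 and HUWE1 -0.0381. Between the compounds: MXD4 -1.25 (parental) and, in resistant cells, MYC -0.52, MXD1 -0.34 and MXD4 -1.005. Among genes with a mean of at least 10 CPM: MYC 0.17, MAX 0.0225 and MXI1 0.27 with dBET6 in parental cells, MNT 0.39 in resistant cells, and MNT between the compounds 0.24 and 0.35. MLXIP with dBET6 in resistant cells was 0.32 by limma on log2(FPKM + 1), with or without a filter, and 0.34 on log2(FPKM + 0.1), for which the cause was not tested.

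Members called in the dBET6 difference numbered 8 under total counts and 1 by limma in each of its 3 forms, against 4. In the JQ1 difference they numbered 1 under mitochondrial scaling and by limma with a filter at either pseudocount, and 0 by limma with no filter (3 at an unadjusted p under 0.05), against 3 by edgeR. Between the lines in DMSO they numbered 3 by limma with no filter, against 7. Over all genes, mitochondrial scaling called 335 in the JQ1 and 2727 in the dBET6 difference. The 10 CPM filter, which tests fewer genes, called 5835 (JQ1) and 7730 (dBET6) in parental cells, 5548 and 7869 in resistant cells, 7711 and 7889 between the compounds and 4620 between the lines, against 9341, 14573, 8391, 14355, 14239, 14168 and 7357. Limma on log2(FPKM + 1) called 5541 (JQ1, resistant), 4017 (lines), 301 (JQ1 difference) and 3509 (dBET6 difference). On log2(FPKM + 0.1) it called 6071 (JQ1, parental), 5319 (JQ1, resistant), 3814, 236 and 3289, and with no filter 5622, 4611, 3447, 274 and 3251. Leaving out single libraries called 548 to 1493 genes in the JQ1 difference. The repressor-to-MYC ratio from protein-coding transcripts, added after seeing the data, was 1.27, 1.56 and 2.40 in parental DMSO, JQ1 and dBET6, and 1.85, 1.05 and 0.499 in resistant cells. Depth limits MYCN, with 4 counts, and MGA in dBET6.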
